A study of Mus musculus with 38 samples.

Results

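Noradrenaline, angiotensin II and endothelin each act on the heart through receptors on its cells, and 8 genes of these systems were followed in the mouse left ventricle. They were taken by name as Adrb1, Adra1a, Adra1b, Agtr1a, Ace, Agt, Ednra and Ednrb, and were 8 of the 29564 genes in the deposited tables. Of the 8, 6 encode receptors, whereas Agt encodes the precursor of the angiotensins and Ace the enzyme that makes angiotensin II. All 8 passed the filter on low counts, which left 13765 genes for testing.

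RNA was sequenced from the left ventricle of 38 C57BL6 mice of WT genotype, with 1 library per mouse. HFpEF, heart failure with preserved ejection fraction, was modelled by a high-fat diet with L-NAME, a drug that blocks nitric oxide synthesis, and the groups were non_failing control mice (n = 8, labelled Vehicle), HFpEF+Veh mice given the model and vehicle (n = 8), HFpEF+TYA-018 mice given the model and the HDAC6 inhibitor TYA-018 (n = 11), and HFpEF+SGLT2i mice given the model and empagliflozin, an inhibitor of the sodium-glucose cotransporter SGLT2 (n = 11). The 3 HFpEF groups therefore share the diet and L-NAME, and both drugs were given on top of them. The labels state no age, and they call the mice female, whereas the study's methods describe males and Y-linked genes were expressed in every library.

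In the heart, noradrenaline from sympathetic nerves raises the rate and force of contraction mainly through the beta-1 receptor. This receptor couples to Gs and cyclic AMP. Noradrenaline also acts on growth and contraction through alpha-1 receptors, which couple to Gq and phospholipase C. Angiotensinogen is cut by renin to angiotensin I, angiotensin-converting enzyme turns this into angiotensin II, and the AT1 receptor carries its signal to constriction, growth and fibrosis. Endothelins act on the ETA receptor of muscle cells and on the ETB receptor, which on endothelial cells releases nitric oxide and clears endothelin. Blockers of several of these steps are used in heart and vascular disease.

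The libraries held estimated counts totalling 21.5M to 59.3M, and the group means lay between 31.7M and 35.0M. Cardiomyocyte transcripts were abundant as the tissue label implies, with 8 marker genes summing to 30670 to 54295 CPM (counts scaled per library to a common total) in each library. The sum of 5 erythrocyte genes averaged 3343 CPM in non_failing, 7484 in HFpEF+Veh, 6905 in HFpEF+TYA-018 and 4004 in HFpEF+SGLT2i hearts. It was highest in HFpEF+Veh V2529, at 21136 CPM. Library HFpEF+Veh V2523 stood apart in carrying liver transcripts: 20 hepatocyte genes summed to 3129 CPM there and to at most 81.6 CPM in the other HFpEF+Veh libraries. In the non_failing group the same sum ran from 63.4 to 649 CPM, and in the drug groups it stayed at or below 50.0 CPM, so that liver genes moved with the groups. Since liver is the main source of Agt, results for Agt are given with and without V2523. The drug comparisons share the HFpEF+Veh libraries, and all comparisons with controls share the non_failing libraries.

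Levels of the 8 genes are given in TPM as deposited, a relative abundance scaled by gene length and library total that can be compared between genes. Means are given ± SD over the 8 libraries of the non_failing and HFpEF+Veh groups and the 11 of each drug group. Ace had the highest mean in every group, from 10.3 to 12.5 TPM. The angiotensin receptor gene Agtr1a came next, with group means of 6.94 to 9.54 TPM, ahead of the endothelin receptor genes except in the HFpEF+SGLT2i group, where Ednrb averaged 7.37 TPM. Adra1a was the lowest in 3 groups, with means of 1.06 to 1.58 TPM, and Agt was the lowest in non_failing hearts at 1.44 ± 0.452 TPM. The estimated counts behind these levels ran from 53.3 for Adra1a to 3587 for Ace in single libraries, so that each gene was counted in every library.

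**Figure D1:**
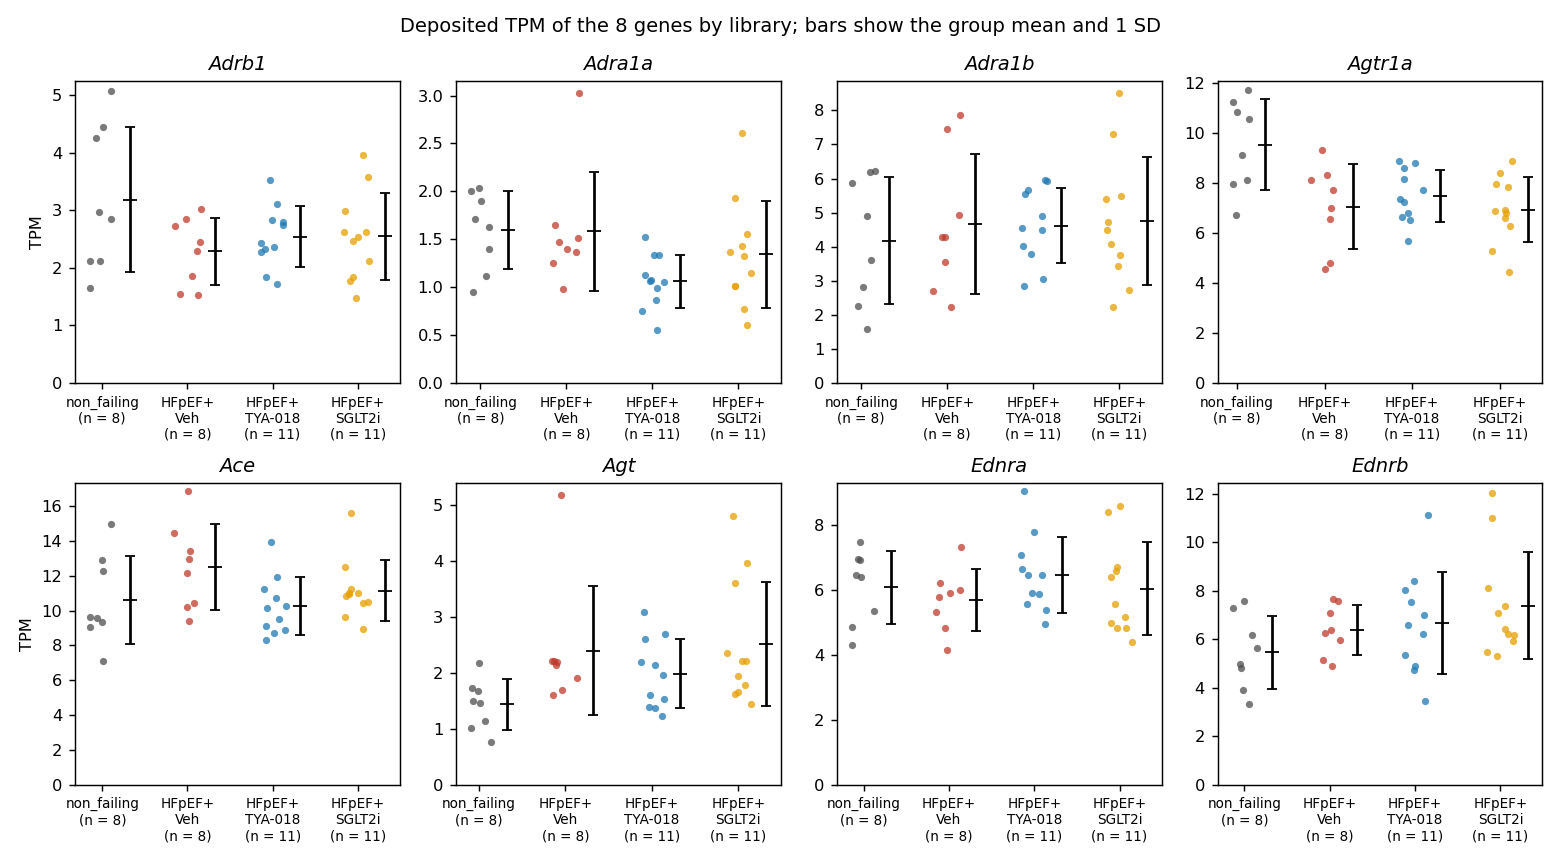
Level of each gene in TPM on a linear axis, with 1 point per library for the 4 groups and bars for the mean and 1 SD. The non_failing libraries for Agtr1a reach 11.7 TPM and those of HFpEF+Veh reach 9.33 TPM, and V2523 is the lone HFpEF+Veh point for Agt at 5.18 TPM.

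Differences were tested with edgeR's quasi-likelihood test on the counts of all 4 groups, with Benjamini-Hochberg adjustment over all genes tested, and a gene is said to have risen or fallen where its adjusted p was below 0.05. Fold changes are log2 differences of the first group minus the second, and libraries are counted as above or below another group's mean in TPM unless log2 CPM is named. Between HFpEF+Veh and non_failing hearts 1 of the 8 genes was called, Agtr1a, beside 3.15% of all genes tested. Between HFpEF+SGLT2i and non_failing hearts 2 were called, Agtr1a and Agt, beside 6.45% of all genes. None of the 8 was called between HFpEF+TYA-018 and non_failing hearts, where 7.39% of all genes were, although Adra1a, Agtr1a and Agt lay under 0.05 before adjustment. Leaving out V2523, the counts of the 8 in these 3 comparisons were again 1, 2 and 0, beside 4.49%, 6.91% and 8.14% of all genes. With 8 genes these counts are too small to set apart from the share in all genes.

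Neither drug moved any of the 8 genes past the threshold against vehicle. In HFpEF+TYA-018 against HFpEF+Veh 0 were called beside 1.93% of all genes, 2 had an unadjusted p under 0.05 in edgeR, the smallest adjusted p was 0.221, and without V2523 0 were called beside 1.42% of all genes. In HFpEF+SGLT2i against HFpEF+Veh 0 were called beside 0.85% of all genes with none of the 8 under 0.05 before adjustment, and leaving out V2523 lowered the share of all genes to 0.0145%. Between the drugs 0 of the 8 and 0% of all genes were called by edgeR, with 0 of the 8 and 1821 of all genes at an unadjusted p under 0.05, and DESeq2 called 185 genes, none of them among the 8. The median log2 fold change of the 8 was close to that of all genes in the comparisons with controls, at 0.01 against 0.01 for HFpEF+Veh, 0.04 against 0.01 for HFpEF+TYA-018 and 0.02 against 0.01 for HFpEF+SGLT2i. Against HFpEF+Veh the medians were 0.13 beside -0.01 for TYA-018 and 0.14 beside 0.01 for empagliflozin. The groups overlapped for every one of the 8 genes in all 6 comparisons. How many of all genes overlapped in this way was not counted, so the overlap does not set the 8 apart. In the test for any difference among the 4 groups 1 gene of the 8, Agtr1a, was called beside 9.5% of all genes, and without V2523 it was 2 genes, Agtr1a and Agt, beside 10.4%. Which gene was called changed with the level of marker genes as a covariate. With the cardiomyocyte level it was Adra1a (adjusted p = 0.0236, edgeR) and not Agtr1a (adjusted p = 0.135), and with the hepatocyte level Agt (adjusted p = 0.00906) and again not Agtr1a. Among all 13765 genes these fits called 1578 and 926. The hepatocyte level itself separated the non_failing libraries from those of both drug groups. For none of the 8 did groups that are neighbours in the order of mean TPM differ beyond the threshold.

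**Figure D2:**
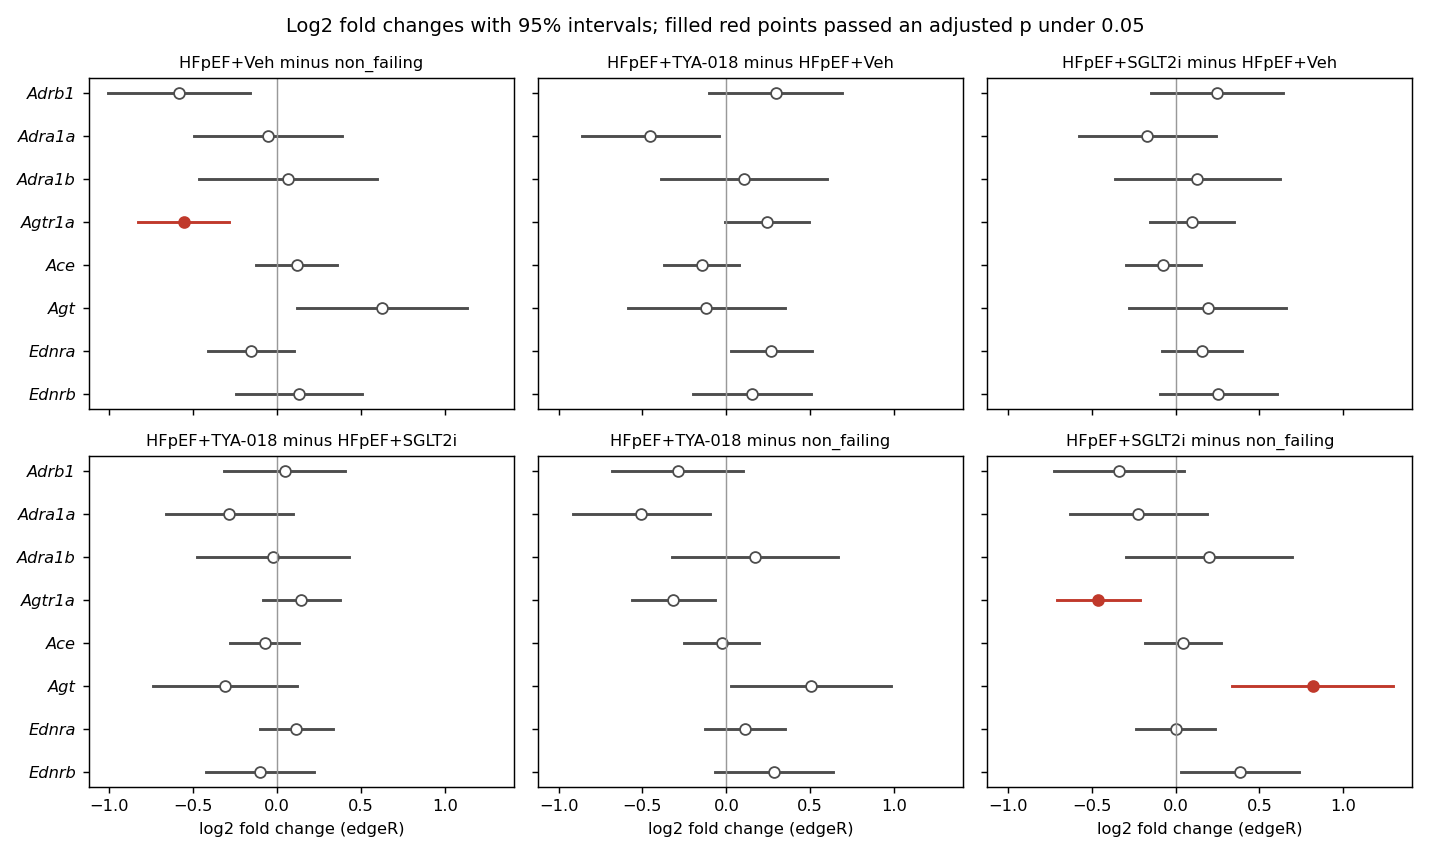
Log2 fold change of each gene in the 6 comparisons, with bars for the 95% interval of the edgeR fit and red marking genes called at an adjusted p below 0.05. Agtr1a lies below 0 in all 3 comparisons with non_failing hearts and is red in 2 of them, and Agt is red at 0.82 in HFpEF+SGLT2i against non_failing.

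Adrb1 (GRCm38 chr19:56722199-56733113, plus strand) encodes the beta-1 receptor, through which noradrenaline raises contractility. Its level ran from 1.64 to 5.06 TPM in non_failing hearts with a median of 2.90, and from 1.53 to 3.02 TPM in HFpEF+Veh hearts with a median of 2.37. It ran from 1.71 to 3.53 TPM with a median of 2.44 in HFpEF+TYA-018 hearts and from 1.48 to 3.96 TPM with a median of 2.53 in HFpEF+SGLT2i hearts. The non_failing group was the most spread out, and had the highest mean at 3.18 ± 1.26 TPM, but all groups overlapped. The log2 fold change of Adrb1 in HFpEF+Veh against non_failing was -0.58 (SE 0.209, 95% interval -1.01 to -0.16), with 8 of 8 libraries below the control mean and an adjusted p of 0.130 in edgeR, so that this difference did not pass. With the cardiomyocyte marker level as a covariate, chosen after the data had been seen, it was -0.15 (adjusted p = 0.826), and with the hepatocyte level -0.39 (adjusted p = 0.486). Against controls it was -0.29 in HFpEF+TYA-018 (adjusted p = 0.402) and -0.34 in HFpEF+SGLT2i (adjusted p = 0.338), and against vehicle it was 0.29 (adjusted p = 0.450) and 0.25 (adjusted p = 0.714), all from edgeR.

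Adra1a (chr14:66635251-66771168, plus strand) and Adra1b (chr11:43774606-43901210, minus strand) encode the alpha-1A and alpha-1B receptors, which activate phospholipase C through Gq. Adra1b was the more abundant of the pair in every group, and its share of their summed TPM averaged 70.3% ± 8.36 in non_failing, 73.2% ± 8.65 in HFpEF+Veh, 81.0% ± 4.74 in HFpEF+TYA-018 and 77.9% ± 2.91 in HFpEF+SGLT2i hearts. These shares are given as a description and were not tested.

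Adra1a ran from 0.947 to 2.04 TPM in non_failing hearts with a median of 1.67, and from 0.977 to 3.03 TPM in HFpEF+Veh hearts with a median of 1.44. It ran from 0.549 to 1.52 TPM with a median of 1.07 in HFpEF+TYA-018 hearts and from 0.602 to 2.61 TPM with a median of 1.32 in HFpEF+SGLT2i hearts. The HFpEF+Veh maximum of Adra1a was a single library, V2532, whose nearest neighbour was at 1.65 TPM, and the other 7 averaged 1.38 ± 0.216 TPM. The lowest Adra1a values were in HFpEF+TYA-018 hearts, but the difference did not pass the threshold against either group. Against HFpEF+Veh the log2 fold change was -0.45 (SE 0.202, 95% interval -0.86 to -0.04) with an adjusted p of 0.229 in edgeR, and 11 of 11 libraries lay below the vehicle mean, which V2532 raised, or 10 of 11 by log2 CPM. Without V2532 it was -0.25 with an adjusted p of 0.510. Against non_failing hearts it was -0.51 (SE 0.202, 95% interval -0.92 to -0.10) with 11 of 11 libraries below the control mean and an adjusted p of 0.121 in edgeR. In HFpEF+Veh against non_failing it was -0.05 (adjusted p = 0.930), and in HFpEF+TYA-018 against HFpEF+SGLT2i it was -0.28 with a 95% interval of -0.66 to 0.09 (adjusted p = 0.544, edgeR).

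Adra1b ran from 1.59 to 6.22 TPM in non_failing hearts with a median of 4.25, and from 2.23 to 7.86 TPM in HFpEF+Veh hearts with a median of 4.29. It ran from 2.84 to 5.95 TPM with a median of 4.55 in HFpEF+TYA-018 hearts and from 2.23 to 8.52 TPM with a median of 4.49 in HFpEF+SGLT2i hearts. The groups were nearly level in their medians while libraries of 1 group differed several-fold. The log2 fold changes of Adra1b lay between -0.03 and 0.20 over the 6 comparisons, and its adjusted p for any difference among the groups was 0.902 in edgeR.

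Agtr1a (chr13:30336441-30382867, plus strand), the gene of the main AT1 receptor of mice, was lower than in control hearts in HFpEF+Veh and HFpEF+SGLT2i. It ran from 6.72 to 11.7 TPM in non_failing hearts with a median of 9.84, and from 4.55 to 9.33 TPM in HFpEF+Veh hearts with a median of 7.37. It ran from 5.67 to 8.87 TPM with a median of 7.38 in HFpEF+TYA-018 hearts and from 4.46 to 8.87 TPM with a median of 6.88 in HFpEF+SGLT2i hearts. The 3 HFpEF groups overlapped widely with each other below the control median. The controls V2507, V2508, V2509 and V2510 fell within their joint range of 4.46 to 9.33 TPM. Agtr1a fell by 0.56 on the log2 scale in HFpEF+Veh against non_failing (SE 0.133, 95% interval -0.83 to -0.29), a fold of 0.679, with 8 of 8 libraries below the control mean and an adjusted p of 0.0126 in edgeR. It fell by 0.46 in HFpEF+SGLT2i against non_failing (SE 0.123, 95% interval -0.71 to -0.21) with 11 of 11 libraries below the control mean and an adjusted p of 0.0168. In HFpEF+TYA-018 against non_failing the log2 fold change was -0.32 (SE 0.123, 95% interval -0.56 to -0.07), again with 11 of 11 libraries below, but the adjusted p of 0.110 did not pass. In bulk tissue, fewer cells that express a gene and less RNA per cell cannot be told apart.

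Against vehicle, Agtr1a differed by 0.24 in HFpEF+TYA-018 (95% interval -0.01 to 0.49, adjusted p = 0.309, edgeR) and by 0.10 in HFpEF+SGLT2i (95% interval -0.15 to 0.35, adjusted p = 0.838), and between the drugs by 0.14 (adjusted p = 0.656). That 1 drug group passed against controls and the other did not does not show a difference between them. The TPM means placed HFpEF+SGLT2i lowest at 6.94 ± 1.31, whereas in CPM, which the fit is closer to, HFpEF+Veh was lowest at 14.3 ± 3.48 and HFpEF+SGLT2i stood at 15.3 ± 3.14. The paralog Agtr1b, whose sequence is nearly the same and could take up shared reads, had at most 2 counts in any library, and a small gene on the same strand, Gm48161, lies within Agtr1a.

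Cardiomyocyte transcripts moved with Agtr1a. The summed level of the 8 cardiomyocyte markers ran from 40665 to 54295 CPM in non_failing, 36740 to 44108 CPM in HFpEF+Veh, 39715 to 50665 CPM in HFpEF+TYA-018 and 30670 to 47271 CPM in HFpEF+SGLT2i hearts, and none of the 8 was at 0. Of these markers 3 fell, Tnnt2, Myl2 and Tnni3, in HFpEF+Veh and again in HFpEF+SGLT2i against non_failing, and 0 of 8 in HFpEF+TYA-018. Over the 38 libraries Agtr1a in log2 CPM followed the mean log2 level of these markers, with Pearson's r = 0.78 (permutation p = 1e-05, the smallest that 100000 permutations can give, adjusted p = 0.00012 over 60 relations) and Spearman's rho = 0.70. Without the 2 libraries farthest from the median r was 0.72, and within the groups it was 0.89 in non_failing, 0.58 in HFpEF+Veh, 0.49 in HFpEF+TYA-018 and 0.90 in HFpEF+SGLT2i. With the marker level as a covariate, an analysis chosen after the data had been seen, the log2 fold change of Agtr1a was -0.27 in HFpEF+Veh against non_failing (adjusted p = 0.221, edgeR) and -0.27 in HFpEF+SGLT2i (adjusted p = 0.0566), so that both calls were lost. Both were also lost with the hepatocyte level as the covariate, at -0.46 (adjusted p = 0.0621, edgeR) and -0.26 (adjusted p = 0.363). In the HFpEF+SGLT2i comparison every control lay above every drug library in hepatocyte level, so that covariate and group cannot be told apart. The part of cell composition in the fall of Agtr1a was not tested further.

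**Figure D3:**
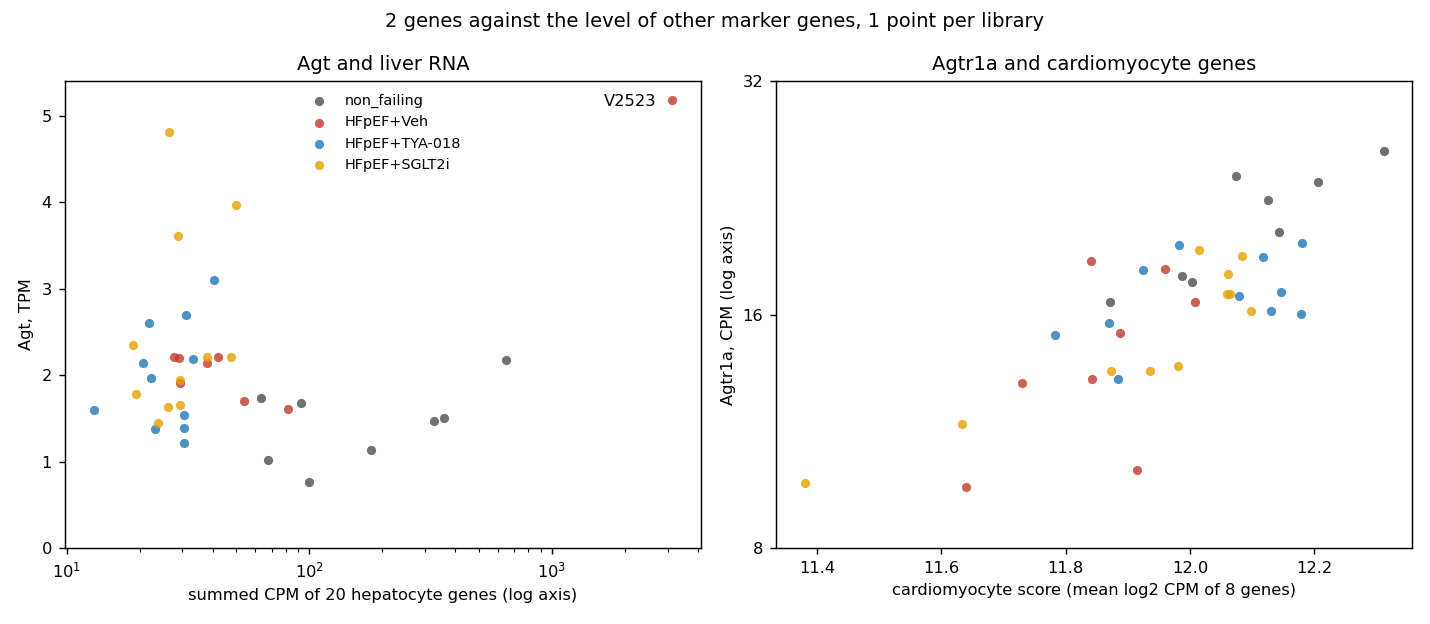
Left, Agt in TPM against the summed CPM of 20 hepatocyte genes on a log axis, and right, Agtr1a in CPM against the mean log2 level of 8 cardiomyocyte genes, with 1 point per library in the colour of its group. V2523 lies alone at 3129 CPM of hepatocyte genes and 5.18 TPM of Agt, and Agtr1a rises with the cardiomyocyte level at r = 0.78 on the log2 scale.

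Agt (chr8:124556534-124569706, minus strand) encodes angiotensinogen, made mainly in the liver and at a low level in the heart. It ran from 0.764 to 2.18 TPM in non_failing hearts with a median of 1.48, and from 1.61 to 5.18 TPM in HFpEF+Veh hearts with a median of 2.17. It ran from 1.22 to 3.10 TPM with a median of 1.97 in HFpEF+TYA-018 hearts and from 1.45 to 4.81 TPM with a median of 2.21 in HFpEF+SGLT2i hearts. The HFpEF+Veh maximum was V2523, and the other 7 libraries lay close together from 1.61 to 2.21 TPM with a mean of 2.00 ± 0.259 TPM (SD, n = 7).

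Agt rose by 0.82 on the log2 scale in HFpEF+SGLT2i against non_failing (SE 0.237, 95% interval 0.34 to 1.30), a fold of 1.76, with 11 of 11 libraries above the control mean and an adjusted p of 0.0292 in edgeR. Without V2523 the value was 0.81 with an adjusted p of 0.0116. The call was lost without any of 6 single libraries, where the log2 fold change of Agt stayed between 0.67 and 0.77: V2507, V2508 and V2509 of the controls (adjusted p = 0.0752, 0.0644 and 0.0618) and V2562, V2571 and V2573 of HFpEF+SGLT2i (adjusted p = 0.0607, 0.0555 and 0.0535). In HFpEF+Veh against non_failing the log2 fold change of Agt was 0.63 (SE 0.251, 95% interval 0.12 to 1.13) with an adjusted p of 0.192 in edgeR, and without V2523 it was 0.36 with an adjusted p of 0.406. In HFpEF+TYA-018 against non_failing it was 0.51 (SE 0.236, 95% interval 0.03 to 0.98), with 8 of 11 libraries above the control mean, or 10 of 11 by log2 CPM, and an adjusted p of 0.197. All 3 HFpEF groups were thus above controls in their means, and 1 of these differences passed.

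Against vehicle the sign of the Agt difference under TYA-018 turned on V2523. It was -0.12 with this library (adjusted p = 0.826, edgeR) and 0.15 without it. In HFpEF+SGLT2i against HFpEF+Veh the difference was 0.19 (adjusted p = 0.826) and without V2523 0.46 (adjusted p = 0.449), and between the drugs it was -0.31 (95% interval -0.74 to 0.12, adjusted p = 0.565). No Agt difference involving a drug and vehicle passed with or without the library. The adjusted p for any difference of Agt among the 4 groups was 0.0931 with V2523 and 0.0419 without it.

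Liver transcripts ran opposite to Agt in the comparison where Agt was called. Alb, the gene of serum albumin, ran from 13.3 to 235 CPM in non_failing hearts, reached 1045 CPM in V2523 and 0.501 to 20.8 CPM in the other HFpEF+Veh libraries, and was at most 1.90 CPM in HFpEF+TYA-018 and 7.42 CPM in HFpEF+SGLT2i hearts. Apoa1, the gene of the main protein of high-density lipoprotein, ran from 3.08 to 53.7 CPM in non_failing hearts, was at 103 CPM in V2523, and stayed at or below 0.381 CPM in HFpEF+TYA-018 and 0.751 CPM in HFpEF+SGLT2i hearts. Of the 20 hepatocyte genes 17 fell in HFpEF+SGLT2i and 18 in HFpEF+TYA-018 against non_failing, 20 of 20 fell in each drug group against HFpEF+Veh, and 0 were called in HFpEF+Veh against non_failing. The last 3 of these counts rest on V2523: without it 17 of the 20 fell in HFpEF+Veh against non_failing, 3 in HFpEF+TYA-018 and 0 in HFpEF+SGLT2i against HFpEF+Veh, and 19 in each drug group against non_failing. With the hepatocyte level as a covariate the log2 fold change of Agt was 1.31 in HFpEF+SGLT2i (adjusted p = 0.00128, edgeR) and 1.02 in HFpEF+TYA-018 (adjusted p = 0.0135), both against non_failing. The hepatocyte level of the lowest control exceeded that of the highest drug library, so that in these comparisons the covariate and the groups cannot be told apart.

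Ace (chr11:105967945-105989964, plus strand) encodes angiotensin-converting enzyme, which in the heart sits mainly on endothelial cells. It ran from 7.13 to 15.0 TPM in non_failing hearts with a median of 9.59, and from 9.44 to 16.9 TPM in HFpEF+Veh hearts with a median of 12.6. It ran from 8.30 to 14.0 TPM with a median of 10.2 in HFpEF+TYA-018 hearts and from 8.92 to 15.6 TPM with a median of 10.9 in HFpEF+SGLT2i hearts. The HFpEF+Veh group had the highest median, but the ranges of all groups largely coincided. The log2 fold changes of Ace were 0.12 in HFpEF+Veh against non_failing (adjusted p = 0.679, edgeR), -0.15 for TYA-018 and -0.07 for empagliflozin against vehicle (adjusted p = 0.512 and 0.864), and the adjusted p for any difference was 0.743. Ace overlaps a gene on the other strand, Gm11651, and the sources used here do not give whether counting used strand.

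Ednra (chr8:77663031-77724464, minus strand) encodes the ETA receptor, which mediates constriction and growth. It ran from 4.30 to 7.45 TPM in non_failing hearts with a median of 6.41, and from 4.15 to 7.32 TPM in HFpEF+Veh hearts with a median of 5.84. It ran from 4.94 to 9.04 TPM with a median of 6.43 in HFpEF+TYA-018 hearts and from 4.40 to 8.57 TPM with a median of 5.56 in HFpEF+SGLT2i hearts. The HFpEF+TYA-018 libraries tended to sit above the vehicle ones, with much overlap. In HFpEF+TYA-018 against HFpEF+Veh the log2 fold change of Ednra was 0.27 (SE 0.118, 95% interval 0.03 to 0.51), 8 of 11 libraries lay above the vehicle mean, or 10 of 11 by log2 CPM, and the adjusted p was 0.221 in edgeR. Without V2523, the lowest vehicle library for Ednra, it was 0.21 with an adjusted p of 0.324. Against non_failing hearts the log2 fold changes were -0.16 in HFpEF+Veh (adjusted p = 0.588), 0.11 in HFpEF+TYA-018 (adjusted p = 0.627) and 0.00 in HFpEF+SGLT2i (adjusted p = 1.00). A gene on the other strand, 4933431K23Rik, overlaps Ednra.

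Ednrb (chr14:103814625-103844402, minus strand) encodes the ETB receptor of endothelial and other cells. It ran from 3.34 to 7.59 TPM in non_failing hearts with a median of 5.31, and from 4.90 to 7.67 TPM in HFpEF+Veh hearts with a median of 6.31. It ran from 3.44 to 11.1 TPM with a median of 6.59 in HFpEF+TYA-018 hearts and from 5.31 to 12.02 TPM with a median of 6.44 in HFpEF+SGLT2i hearts. The drug groups held the highest single libraries, V2543 and V2571, while most of their libraries lay within the control range. In HFpEF+SGLT2i against non_failing the log2 fold change of Ednrb was 0.39 (SE 0.174, 95% interval 0.03 to 0.74) with 10 of 11 libraries above the control mean, or 11 of 11 by log2 CPM, and an adjusted p of 0.203 in edgeR. It was 0.13 in HFpEF+Veh (adjusted p = 0.783) and 0.28 in HFpEF+TYA-018 (adjusted p = 0.354), both against controls. The share of Ednrb in the summed TPM of both endothelin receptor genes averaged 46.9% ± 10.2 in non_failing, 52.8% ± 5.83 in HFpEF+Veh, 50.0% ± 7.04 in HFpEF+TYA-018 and 54.6% ± 9.71 in HFpEF+SGLT2i hearts, so that neither receptor prevailed.

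By TPM, single mice were low or high for several of these genes at once. Library V2507 was the lowest non_failing library for 6 of the 8 genes, all but Ace and Ednrb. V2543 was the highest HFpEF+TYA-018 library for 6, all but Adra1a and Ace. V2523 was the highest HFpEF+Veh library for 5, and V2571 was the lowest HFpEF+SGLT2i library for Adrb1, Adra1a, Adra1b and Agtr1a and the highest for Ace and Ednrb. By CPM the number was 3 for V2507, 4 for V2543 and 3 for V2523, and for V2571 again 4 lowest and 2 highest.

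The joint variation of the genes was measured as correlations of log2 CPM over the 38 libraries, with permutation p-values adjusted over 60 relations. Adrb1, Adra1b and Agtr1a rose and fell together over all libraries, though less closely within some groups. Pearson's r was 0.70 between Adrb1 and Agtr1a (adjusted permutation p = 0.00012, Spearman's rho = 0.62), 0.67 between Adrb1 and Adra1b (adjusted permutation p = 0.00012, rho = 0.71) and 0.56 between Adra1b and Agtr1a (adjusted permutation p = 0.0017, rho = 0.49). Without the 2 farthest libraries these were 0.65, 0.69 and 0.56, and with the group means removed they were 0.64, 0.76 and 0.78. Adrb1 with Agtr1a had r = 0.95 within non_failing, 0.26 within HFpEF+Veh, 0.42 within HFpEF+TYA-018 and 0.85 within HFpEF+SGLT2i. Adrb1 with Adra1b was weakest within HFpEF+Veh, at 0.44, and Adra1b with Agtr1a within HFpEF+TYA-018, at 0.24. Ace and Ednrb ran opposite to Agtr1a over all libraries. Pearson's r was -0.54 between Agtr1a and Ace (adjusted permutation p = 0.0023, rho = -0.46) and -0.50 between Agtr1a and Ednrb (adjusted permutation p = 0.0052, rho = -0.53). These were -0.45 and -0.47 without the 2 farthest libraries and -0.55 and -0.47 with the group means removed. Adrb1 had r = -0.52 with Ace and -0.42 with Ednrb, and Adra1b -0.48 and -0.22, the last with an adjusted permutation p of 0.32. Within each group Agtr1a with Ace stayed below 0, from -0.96 in non_failing to -0.24 in HFpEF+TYA-018. In some groups the sign for Ednrb turned. Its r was 0.14 with Agtr1a and 0.21 with Adra1b in HFpEF+Veh, and 0.57 with Adra1b and 0.55 with Adrb1 in HFpEF+TYA-018. In non_failing and HFpEF+SGLT2i these pairs lay between -0.91 and -0.64.

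Over all 38 libraries a like division appeared against cardiomyocyte and endothelial markers, but it did not hold within every group. Against the cardiomyocyte level r was 0.69 for Adrb1 (rho = 0.62), 0.54 for Adra1b (rho = 0.53), 0.47 for Adra1a (rho = 0.43) and 0.45 for Ednra (rho = 0.54), but -0.58 for Ace (rho = -0.44), -0.44 for Ednrb (rho = -0.36) and -0.16 for Agt (rho = -0.065). The adjusted permutation p of r was at most 0.016 for each but Agt, for which it was 0.50, and that of rho for Ednrb was 0.058. Against the level of 8 endothelial markers r was 0.53 for Ednrb (rho = 0.43) and 0.47 for Ace (rho = 0.35), but -0.72 for Adrb1 (rho = -0.67), -0.65 for Agtr1a (rho = -0.56), -0.62 for Adra1b (rho = -0.63), -0.53 for Adra1a (rho = -0.54) and -0.43 for Ednra (rho = -0.54), each r with an adjusted permutation p of at most 0.021, and it was -0.016 for Agt (adjusted permutation p = 0.93). The adjusted permutation p of rho for Ace with the endothelial level was 0.070. Leaving out the 2 farthest libraries, these values kept their signs. Apart from Agt, the weakest were then 0.33 for Adra1a and -0.31 for Ednrb with the cardiomyocyte level, and 0.25 for Ace and 0.32 for Ednrb with the endothelial level. Within HFpEF+TYA-018 the endothelial level had r = 0.17 with Adrb1, -0.066 with Agtr1a and -0.050 with Ace, and the cardiomyocyte level r = 0.014 with Ednrb. Within HFpEF+Veh the endothelial level had r = 0.0040 with Ednrb and 0.070 with Ednra. Against the level of 8 fibroblast markers r was -0.41 for Agtr1a (rho = -0.41) and 0.40 for Ace (rho = 0.32), each r with an adjusted permutation p of 0.028, and that of rho for Ace was 0.095. Without the 2 farthest libraries these were -0.28 and 0.33, and for the other 6 genes the adjusted permutation p of r was at least 0.32. Of the 8 fibroblast markers Lum and Pdgfra rose in HFpEF+Veh against non_failing, while in HFpEF+SGLT2i, where Agtr1a also fell, Pdgfra rose and Tcf21 fell. The summed level of the 8 ran from 497 to 650 CPM in non_failing, from 574 to 1204 CPM in HFpEF+Veh and from 455 to 715 CPM in HFpEF+SGLT2i hearts. Their part in the fall of Agtr1a was not tested. Against pericyte and smooth muscle markers no r exceeded 0.21 in size. The genes are counted in shares of the same libraries, so that a rise of one cell type's transcripts lowers the others.

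**Figure D4:**
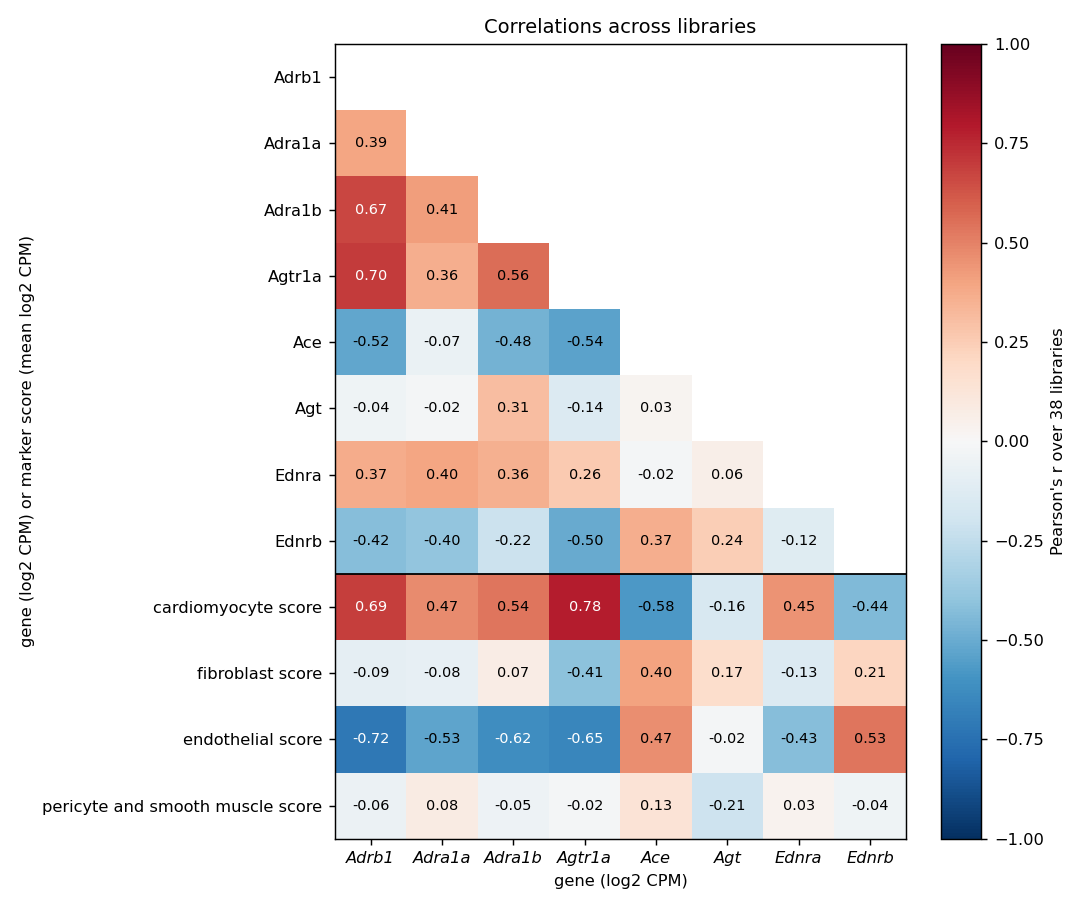
Pearson's r of log2 CPM over 38 libraries among the 8 genes and with 4 marker levels, on a colour scale from -1 to 1. Adrb1, Adra1b and Agtr1a share positive values with each other and with the cardiomyocyte level, up to 0.78, and negative ones with Ace, Ednrb and the endothelial level, down to -0.72.

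The genes whose pattern over the 38 libraries was most like each member's were found by Spearman's rho of log2 CPM, as a description. For Agtr1a they were Ghr, the growth hormone receptor gene (rho = 0.877), Gja3 (0.823) and Angpt1 (0.804). For Adrb1 they were Gal3st3 (0.849), Fgf16 (0.844) and Mrps2 (0.843), for Adra1b Lbh (0.874), 0610040J01Rik (0.867) and Gata4 (0.857), and for Adra1a Klhl24 (0.829), Jmy (0.813) and Ern1 (0.802). The likeness was lower for the others: Timp3 (0.729), Cmklr1 (0.729) and Cyth3 (0.721) for Ace, Polr3c (0.674), Ninj1 (0.631) and Lrg1 (0.623) for Agt, Mypn (0.784), Homer1 (0.760) and Mto1 (0.716) for Ednra, and Plaur (0.718), Pxdc1 (0.706) and Skil (0.688) for Ednrb. Agt thus had the loosest company of the 8.

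Around these genes, 70 others of the same pathways were listed in 5 groups, and 59 passed the filter. None of the 59 was called in a comparison of a drug with vehicle or of the drugs with each other, where 1.93%, 0.85% and 0% of all genes were, so few that a count of 0 does not set these genes apart. Thus all calls among them are against non_failing hearts, as are the other differences given unless vehicle is named, and these comparisons share the non_failing libraries. Of the other endothelin genes, 4 of 5 were tested, and 1 rose in each HFpEF group with 0 falling. It was Edn3 (chr2:174760619-174784042, plus strand), a ligand gene whose peptide prefers the ETB receptor. Edn3 ran at 0.403 ± 0.128 TPM in non_failing, 2.58 ± 1.09 in HFpEF+Veh, 1.72 ± 0.638 in HFpEF+TYA-018 and 1.89 ± 0.662 in HFpEF+SGLT2i hearts, and no control library reached any HFpEF library. Its log2 fold changes were 2.59 in HFpEF+Veh (SE 0.263, adjusted p = 1.45e-08, edgeR), 2.11 in HFpEF+TYA-018 (adjusted p = 3.35e-07) and 2.25 in HFpEF+SGLT2i (adjusted p = 7.5e-08). Against vehicle Edn3 differed by -0.48 under TYA-018 (adjusted p = 0.249) and -0.33 under empagliflozin (adjusted p = 0.650).

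**Figure D5:**
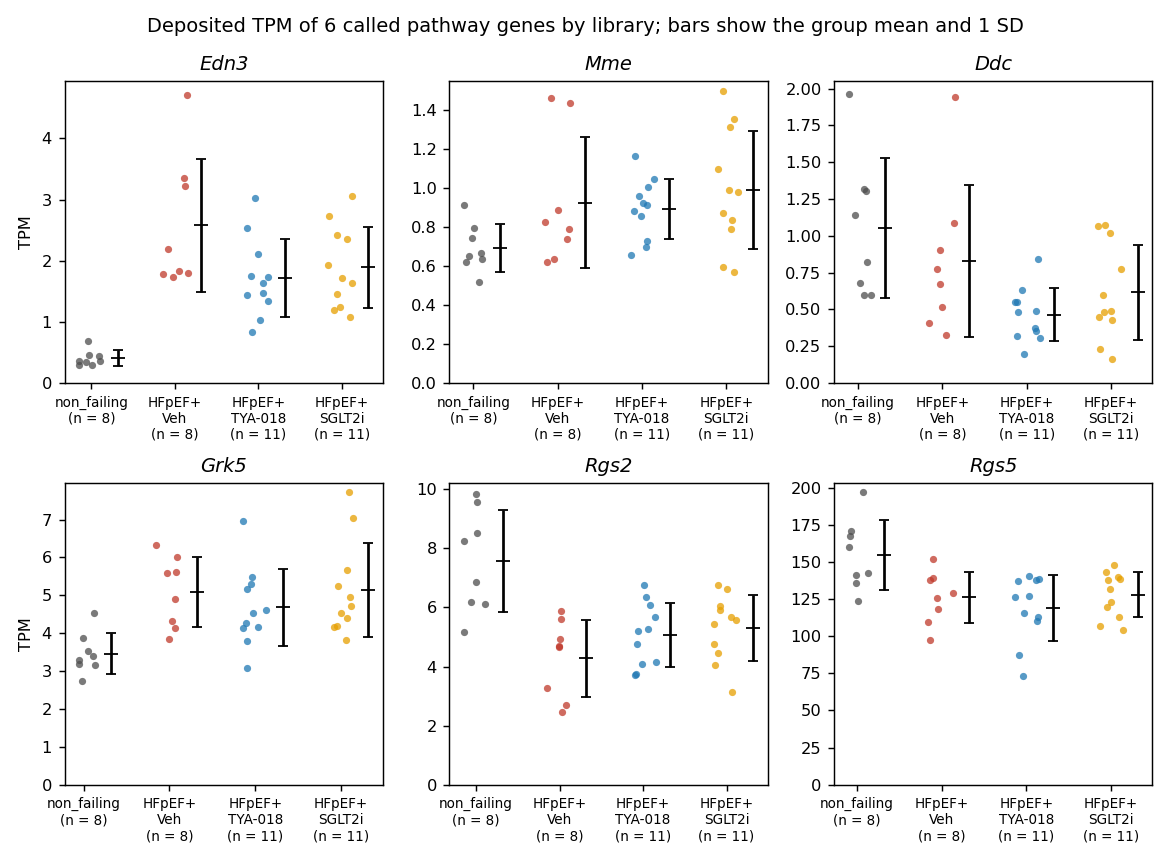
Level in TPM, on linear axes, of 6 other pathway genes called against non_failing hearts (Edn3, Mme, Ddc, Grk5, Rgs2 and Rgs5), with 1 point per library and bars for the mean and 1 SD. For Edn3 the highest non_failing library, at 0.684 TPM, lies below every HFpEF library, and the highest Ddc value of HFpEF+Veh is V2523 at 1.94 TPM.

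Of the other renin-angiotensin genes 12 of 18 were tested. Mme (chr3:63241537-63386030, plus strand), the gene of neprilysin, which degrades natriuretic peptides and angiotensins, rose by 0.52 in HFpEF+TYA-018 (adjusted p = 0.0154) and by 0.53 in HFpEF+SGLT2i (adjusted p = 0.0152), and its log2 fold change in HFpEF+Veh was 0.36 (adjusted p = 0.202). Both Mme calls were lost in limma (adjusted p of 0.0703 to 0.207) and with gene length as an offset (adjusted p = 0.171 and 0.0792). Ren1, Agtr1b, Agtr2 and Ctsg had at most 8 counts in any library and were not tested.

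Of the genes that make, take up or break down catecholamines 8 of 10 were tested. Ddc (chr11:11814101-11898144, minus strand), a step of catecholamine and serotonin synthesis, fell by 1.36 in HFpEF+TYA-018 (SE 0.311, adjusted p = 0.00442) from 1.05 ± 0.475 TPM in non_failing to 0.463 ± 0.181 TPM, with 4 to 97 counts per library. Liver also expresses Ddc. V2523 held the highest HFpEF+Veh value, 1.94 TPM. The Ddc difference in HFpEF+Veh went from -0.58 (adjusted p = 0.404, edgeR) to -1.02 (adjusted p = 0.0453) without this library. With the hepatocyte level as a covariate the log2 fold change in HFpEF+TYA-018 was -0.62 (adjusted p = 0.273). In that comparison every control lay above every drug library in hepatocyte level, so that covariate and group cannot be told apart. The part of liver RNA in the Ddc differences was not tested. Th and Slc6a2, genes of the sympathetic nerve ending whose RNA lies mainly outside the heart, had at most 8 counts and were not tested.

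Of 31 genes that carry the receptors' signal, all tested, 1 rose and 2 fell in HFpEF+Veh, 1 rose and 2 fell in HFpEF+TYA-018 and 1 rose and 1 fell in HFpEF+SGLT2i hearts, beside 3.15%, 7.39% and 6.45% of all genes called in either direction, and their medians were -0.05, -0.05 and 0.01. Grk5 (chr19:60889749-61095968, plus strand), a kinase that phosphorylates and desensitises active receptors, was at 3.46 ± 0.543 TPM in non_failing and 5.09 ± 0.924 in HFpEF+Veh hearts. Grk5 rose by 0.49 in HFpEF+Veh (SE 0.107, adjusted p = 0.00529, edgeR), by 0.52 in HFpEF+TYA-018 (adjusted p = 0.000858) and by 0.56 in HFpEF+SGLT2i (adjusted p = 0.000344). Rgs2 (chr1:143999338-144004161, minus strand), whose protein switches off Gq, went the other way, from 7.56 ± 1.73 TPM in non_failing to 4.27 ± 1.31 in HFpEF+Veh hearts. Rgs2 fell by 0.90 in HFpEF+Veh (SE 0.169, adjusted p = 0.00133), by 0.56 in HFpEF+TYA-018 (adjusted p = 0.0198) and by 0.52 in HFpEF+SGLT2i (adjusted p = 0.0353). The Rgs2 call in HFpEF+TYA-018 was lost without V2503 and with the hepatocyte level as a covariate (-0.38, adjusted p = 0.247, edgeR). That in HFpEF+SGLT2i was lost in 7 of 38 fits that left out 1 library and in limma (adjusted p = 0.0695 and 0.0739). It was also lost with the hepatocyte covariate (-0.35, adjusted p = 0.335, edgeR). In both comparisons the hepatocyte level separated the groups, so that covariate and group cannot be told apart. Rgs5 (chr1:169655501-169695813, plus strand), a regulator of the same kind that is also a pericyte marker, fell by 0.36 in HFpEF+Veh (adjusted p = 0.0313) and by 0.33 in HFpEF+TYA-018 (adjusted p = 0.0171, lost without V2509). The Rgs5 call in HFpEF+Veh was lost in 6 of 38 fits that left out 1 library and in 4 of 9 other settings, with an adjusted p of 0.0549 without the filter on low counts, 0.122 in limma at both pseudocounts and 0.142 with library size alone. Among the 8 pericyte and smooth muscle markers, which include Rgs5, Abcc9 also fell in HFpEF+Veh and 0 rose, whereas in HFpEF+TYA-018 Acta2 rose and no marker but Rgs5 fell, and the part of these cells was not tested. Of the other adrenergic receptor genes 4 of 6 were tested and 0 were called in any comparison by edgeR, with 0 at an unadjusted p under 0.05, and the most different, Adra1d, had a log2 fold change of -0.77 in HFpEF+Veh (adjusted p = 0.322). Grk5 overlaps Gm9529, Gm22520 and Zfp950 on the other strand.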

How the data were processed

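RNA-seq libraries of the left ventricle were made with a stranded poly(A) kit, 1 per mouse. According to the study's methods, the authors quantified reads against the mouse transcriptome of GRCm38 with Salmon (version 1.6.0 in the submitters' processing notes) and summed transcripts to genes; the build in the labels is hg38, and which strand setting was used is not given in the sources used here. The authors deposited estimated counts, TPM and effective gene lengths (used here only as an offset in an alternative); 0 columns could not be mapped to a sample. Of 29564 genes, 7693 had no count. Salmon's corrections for sequence, GC and position bias make the counts model-based estimates, and genes that share sequence share reads.

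Estimated counts, as deposited, were rounded and fitted with edgeR 4.0.16 in R 4.3.3 (TMM, filterByExpr, quasi-likelihood, 4 groups in 1 model). SEs were the fold change over the root of F. CPM used TMM library sizes. Libraries are separate mice by their titles, which is all the labels say of replication. Alternatives used DESeq2 1.42.0, library size alone, no filter, limma 3.58.1 on log2 of TPM plus 1 or 0.1, gene length as offset, only the groups compared, marker covariates and leaving out each of the 38 libraries. Correlations used Python 3.11.15 and 100000 permutations, two-sided. Coordinates come from GENCODE M21. The test was checked on simulated counts.

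The 8 genes, and the pathway and marker lists, were chosen with earlier results of these data known. Named beside the 8 were up to 3 called genes per pathway list and comparison with the smallest p, and the 3 genes most alike with a mean log2 CPM of at least 1. Some genes of the pathway lists are not reported here.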

Additional observations from a re-analysis of the deposited data

Results flagged for a closer look

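Of 32 checks of the highest and lowest TPM in the non_failing and HFpEF+Veh groups with Dixon's criterion, 4 found a library that stood apart, in 3 libraries in all, and chance alone sets apart about 1 group in 20. Agt in HFpEF+Veh V2523 was at 5.18 TPM and the next library at 2.21, and Ddc in the same library was at 1.94 TPM with the next at 1.09. The summed hepatocyte genes were at 3129 CPM in V2523, and their part in both values was not tested. Adra1a in HFpEF+Veh V2532 was at 3.03 TPM and the next library at 1.65. Edn3 in non_failing V2508 was at 0.684 TPM and the next library at 0.454.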

How the results depend on the processing

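No paired analysis was possible because mouse numbers are not shared between groups. The covariate of cardiomyocyte markers for all genes, and of hepatocyte genes for those other than Agt, was chosen after the data had been seen. The fall of Agtr1a in HFpEF+Veh kept an adjusted p of 0.00294 to 0.0424 in the 7 other planned settings and at most 0.0368 with 1 library left out (log2 fold change -0.62 to -0.49). It was lost with the hepatocyte covariate (-0.46, adjusted p = 0.0621, edgeR) and the cardiomyocyte covariate, and so was the fall in HFpEF+SGLT2i (-0.26, adjusted p = 0.363 with the hepatocyte covariate). For each drug group against non_failing, the hepatocyte covariate and the groups cannot be told apart. In HFpEF+TYA-018 against non_failing, Agtr1a and Adra1a were called when the fit held only the groups compared (-0.33, adjusted p = 0.0386, and -0.52, adjusted p = 0.0491). The rise of Agt in HFpEF+SGLT2i was lost with library size alone (0.80, adjusted p = 0.05003) and in limma on TPM plus 1 (0.58, adjusted p = 0.0535). Adra1a in HFpEF+TYA-018 against HFpEF+Veh passed with the cardiomyocyte covariate (-0.73, adjusted p = 0.0273). Except where a left-out library or the setting itself shows it, the cause of these changes was not tested.

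Of the 8 genes, the number called in HFpEF+Veh against non_failing was 0 with either covariate, beside 335 (cardiomyocyte) and 312 (hepatocyte) of 13765 genes. In HFpEF+TYA-018 against HFpEF+Veh it was 1 with the cardiomyocyte covariate, beside 120 of 13765. Against non_failing it was 2 with only the groups compared, beside 966 of 13290, and 1 with the hepatocyte covariate, beside 762 of 13765. In HFpEF+SGLT2i against non_failing it was 1 with library size alone (beside 657 of 13765) and limma on TPM plus 1 (527 of 13909). It was also 1 with the cardiomyocyte covariate (1424 of 13765) and the hepatocyte covariate (554 of 13765). With 1 library left out it was 1 to 2, beside 701 to 988 of all genes. For any difference it was 2 without V2523, beside 1437 of 13801. These counts of the 8 are too small to set apart from all genes.

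Over all genes, calls in HFpEF+TYA-018 against HFpEF+Veh numbered 266, against 402 in DESeq2, 1096 with library size alone, 618 without a filter, 42 and 24 in limma (pseudocount 1 and 0.1), 58 with only the groups compared, 120 with the cardiomyocyte covariate and 167 to 393 with 1 library left out (167 without V2530). In HFpEF+SGLT2i against HFpEF+Veh they numbered 117, against 457 without a filter, 0 and 0 in limma, 3 with only the groups compared, 27 with the hepatocyte covariate and 2 to 175 with 1 library left out (2 without V2523). Between the drugs they numbered 0, against 185 in DESeq2, 5 with the length offset, 20 with the cardiomyocyte covariate and 0 to 17 with 1 library left out. Against non_failing, HFpEF+TYA-018 had 1017, with 597 and 616 in limma and 1640 with the cardiomyocyte covariate, and HFpEF+SGLT2i had 888, with 527 and 558 in limma, 554 with the hepatocyte and 1424 with the cardiomyocyte covariate. Without V2504, 289 genes were called in HFpEF+Veh against non_failing, and without V2523 620, instead of 433. Library size alone shifted the median of all genes by -0.14 in HFpEF+TYA-018 against HFpEF+Veh and turned its calls from 115 higher and 151 lower to 25 and 1071. It turned those of HFpEF+Veh against non_failing from 243 higher and 190 lower to 379 and 98, those of HFpEF+SGLT2i against HFpEF+Veh from 18 and 99 to 4 and 145, and those of HFpEF+TYA-018 against non_failing from 551 and 466 to 258 and 646.

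Signs changed only for log2 fold changes that passed no threshold. With the cardiomyocyte covariate Adra1a was at 0.31, Ace at -0.061 and Ednrb at -0.074 in HFpEF+Veh against non_failing, Adra1b at -0.25 in HFpEF+TYA-018 and -0.053 in HFpEF+SGLT2i and Agtr1a at -0.0063 in HFpEF+SGLT2i, these against HFpEF+Veh, Adrb1 at -0.073, Ace at 0.0089 and Ednrb at 0.022 between the drugs, and Adra1a at 0.0077 and Ace at -0.077 in HFpEF+SGLT2i against non_failing. With the hepatocyte covariate Adra1a was at 0.00077 and Ace at -0.0024 in HFpEF+Veh against non_failing, Agt at 0.22 in HFpEF+TYA-018 against HFpEF+Veh, Adrb1 at 0.10 in HFpEF+TYA-018 and 0.039 in HFpEF+SGLT2i against non_failing, and Ace at -0.18 and Ednra at -0.079 in HFpEF+SGLT2i against non_failing. With library size alone Adra1a was at 0.0039 in HFpEF+Veh against non_failing, Adra1b at -0.032 in HFpEF+TYA-018 against HFpEF+Veh, Adrb1 at -0.00034 between the drugs and Ednra at -0.0096 in HFpEF+SGLT2i against non_failing. That value of Ednra was -0.0056 in DESeq2, -0.0073 and -0.0081 in limma, -0.018 with the length offset and -0.0012 with only the groups compared, and Adra1b between the drugs was at 0.0057 and 0.011 in limma.

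With 1 library left out, signs changed for Ace in HFpEF+SGLT2i (-0.020 to 0.12) and HFpEF+TYA-018 (-0.096 to 0.041), Adra1a (-0.26 to 0.018) and Adra1b (-0.072 to 0.17) in HFpEF+Veh and Ednra in HFpEF+SGLT2i (-0.057 to 0.036), all against non_failing. They also changed for Adra1a in HFpEF+SGLT2i (-0.31 to 0.035, above 0 without V2532) and Agt in HFpEF+TYA-018 (-0.20 to 0.15, above 0 without V2523) against HFpEF+Veh, and for Adra1b (-0.099 to 0.090) and Adrb1 (-0.015 to 0.14) between the drugs. Ddc, with as few as 4 counts in a library, is limited by depth, and the groups of 8 and 11 mice by their spread.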

Other observations

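Among the pathway genes that passed no threshold, a few, chosen after their values were seen, complete the picture. Edn1, the main endothelin gene of the heart, averaged (± SD over 8, 8, 11 and 11 libraries) 2.75 ± 0.828 TPM in non_failing, 3.66 ± 0.841 in HFpEF+Veh, 2.64 ± 0.638 in HFpEF+TYA-018 and 2.74 ± 1.17 in HFpEF+SGLT2i hearts. Its log2 fold change was 0.30 in HFpEF+Veh against non_failing (adjusted p = 0.468, edgeR) and -0.34 in HFpEF+TYA-018 against HFpEF+Veh (adjusted p = 0.332). Ece1, whose enzyme releases endothelin from its precursor, had a log2 fold change of -0.26 in HFpEF+TYA-018 against HFpEF+Veh (adjusted p = 0.0886). Anpep, which trims angiotensin peptides, stood at -0.43 in the same comparison (adjusted p = 0.0984).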
